A study of Mus musculus with 3 samples.

Results

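The sarcomere and contractile genes are 40 genes, of 33696 gene rows in each matrix, chosen by name for the parts of the contractile apparatus they encode. All 40 symbols were found. They fall into 8 families: actins and their crosslinkers, myosin heavy chains, myosin light chains, myosin binding proteins, troponins, tropomyosins, scaffold proteins and calcium handling proteins. They were followed in single cells of the mouse embryonic trunk at embryonic days E11.5, E12.5 and E13.5, written in that order below unless a stage is named. The trunk was cut at the neck and upper thorax (C3-T2), forelimbs and thoracic organs were taken off, and the neural tube was left in. For each stage 3 littermates were pooled into 1 library, and the labels used here name no strain, genotype or treatment. There was thus no replicate, no difference was tested, and every interval is a 95% interval that covers counting error only.

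A sarcomere is the repeating unit of striated muscle, in which myosin filaments pull on actin filaments. Calcium from the sarcoplasmic reticulum binds troponin C, troponins I and T pass the signal on, and tropomyosin then frees the myosin-binding sites of actin. Titin and nebulin span the filaments, and proteins of the Z-disc and M-band anchor them. Trunk skeletal muscle comes from somites, where progenitors with Myf5 become myocytes with Myog, which build sarcomeres and fuse. Embryonic skeletal muscle is known for using isoforms that heart or smooth muscle also uses. Smooth muscle and the mural cells of vessels have their own set, with Acta2, Myl9 and Myh11.

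The RefSeq table of build GRCm38.p6 held start regions for 33 of the 40 members. The regions of Tnnt1 and Actc1 are shown because both genes were already high in Myog-positive cells, and those of Acta1, Mylpf and Myh3 because their level was concentrated in Acta1-positive cells. Each stretch runs 5′ to 3′ from 250 bases before the listed start to 30 bases past it. Capitals mark the E-box CANNTG, which Myf5 and Myog bind, the CArG box of serum response factor, and TATAAA on the gene's strand.
Tnnt1 (chr7:4515946-4516225, minus strand): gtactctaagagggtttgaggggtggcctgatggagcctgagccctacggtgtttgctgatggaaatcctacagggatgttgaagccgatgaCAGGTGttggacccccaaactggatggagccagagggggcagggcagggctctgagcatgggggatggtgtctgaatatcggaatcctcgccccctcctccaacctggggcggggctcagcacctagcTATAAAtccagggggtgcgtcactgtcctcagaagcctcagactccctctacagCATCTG
Actc1 (chr2:114052846-114053125, minus strand): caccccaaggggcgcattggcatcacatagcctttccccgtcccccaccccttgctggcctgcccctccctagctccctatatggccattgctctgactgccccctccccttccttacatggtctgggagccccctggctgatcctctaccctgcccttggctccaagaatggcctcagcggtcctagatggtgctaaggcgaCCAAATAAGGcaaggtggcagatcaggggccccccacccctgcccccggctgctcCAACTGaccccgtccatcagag
Acta1 (chr8:123894746-123895025, minus strand): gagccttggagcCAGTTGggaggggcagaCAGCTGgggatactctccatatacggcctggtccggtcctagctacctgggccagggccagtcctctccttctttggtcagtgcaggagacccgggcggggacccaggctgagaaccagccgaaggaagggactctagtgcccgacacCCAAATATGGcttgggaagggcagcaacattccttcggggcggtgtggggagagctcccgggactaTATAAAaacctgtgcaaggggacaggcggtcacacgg
Mylpf (chr7:127211358-127211637, plus strand): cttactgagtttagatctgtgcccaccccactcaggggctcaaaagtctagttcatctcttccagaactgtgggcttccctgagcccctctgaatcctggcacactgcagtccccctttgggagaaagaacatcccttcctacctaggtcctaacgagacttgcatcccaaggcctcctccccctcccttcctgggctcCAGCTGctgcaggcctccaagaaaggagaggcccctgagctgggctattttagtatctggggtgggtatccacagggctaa
Myh3 (chr11:67078050-67078329, plus strand): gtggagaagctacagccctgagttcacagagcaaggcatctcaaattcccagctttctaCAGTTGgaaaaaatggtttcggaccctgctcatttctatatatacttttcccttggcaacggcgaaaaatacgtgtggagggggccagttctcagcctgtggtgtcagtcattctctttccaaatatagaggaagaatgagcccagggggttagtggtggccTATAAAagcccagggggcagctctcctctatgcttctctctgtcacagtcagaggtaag
Motifs were counted in windows of 300 bases, from 250 before to 50 after a start. An E-box was in 84.6% of the 39 member windows and in 72.3% of all 32851 windows. The CArG box, searched on both strands, was in 20.5% of member windows and 1.63% of all. Its 7 members were Acta1, Actc1, Myl3, Myl7, Myl9, Ldb3 and Myom1. The MEF2 box was in 10.3% of member windows (Ttn, Casq2, Myh1 and Myh8) and 3.19% of all. TATAAA was in 17.9% of member windows, among them those of Tnnt1, Actc1, Acta1 and Myh3, and in 8.32% of all. The TATAAA of Actc1 lies beyond the stretch shown. Acta1 and Actc1 both held all of E-box, CArG box and TATAAA. These are matches of letters and show no binding.

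The libraries held 103383215, 94155624 and 113402193 unique molecular identifiers (UMIs, counted RNA molecules). Cells were barcodes with at least 4000 UMIs, and 6313, 6140 and 7114 were kept, with a median of 12515, 11070 and 10285 UMIs. Levels are CPM, a gene's UMIs scaled to 1000000 UMIs of its class, with the cells of a class summed. Muscle cells were put in 3 classes with limits set after the data had been seen. Myf5-positive cells, which had no Myog UMI, numbered 80, 85 and 85. Myog-positive cells that did not meet the Acta1-positive definition numbered 104, 265 and 330, and 1 of those at E13.5, with 1518 CPM of Acta1, lay over its Acta1 limit. Acta1-positive cells, with at least 500 CPM of Acta1 and at least 3 muscle markers outside the 40 genes, numbered 27, 23 and 34, or 0.428% (0.282 to 0.622), 0.375% (0.238 to 0.562) and 0.478% (0.331 to 0.667) of cells. Muscle cells that also met the mesenchyme or mural limits were kept as muscle, and some other classes were ranked likewise. Cells that still met the limits of more than 1 class (184, 165 and 238) were left out of every class. Pairs of libraries shared 10 to 16 cell barcodes. Cells carrying Xist but lacking Y-linked UMIs made up 14 of 27, 9 of 23 and 31 of 34 Acta1-positive cells. In Acta1-positive cells the lowest Acta1 level was 621, 507 and 528 CPM, the median 3402, 2812 and 1128 and the highest 16510, 12750 and 9805. The highest muscle cells under the limit had 314, 476 and 450.4 CPM.

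The members took 0.220, 0.276 and 0.222% of all UMIs of Myf5-positive cells, 0.993, 0.983 and 0.936% in Myog-positive cells and 7.90, 7.21 and 4.41% in Acta1-positive cells. Single Acta1-positive cells spent between 3.90 and 12.1% of their UMIs on members at E11.5, and between 0.572 and 9.13% at E13.5. Muscle was a small part of each library, so much member RNA lay elsewhere. Acta1-positive cells held 27.3, 19.2 and 13.2% of all member UMIs, Myog-positive cells 13.1, 27.1 and 26.7%, and mesenchyme 26.8, 37.1 and 43.6%, where Tpm1 and Tpm3 were the most counted members. Of Acta1 itself, 86.9, 85.4 and 61.9% was in the class it defines.

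**Figure D1:**
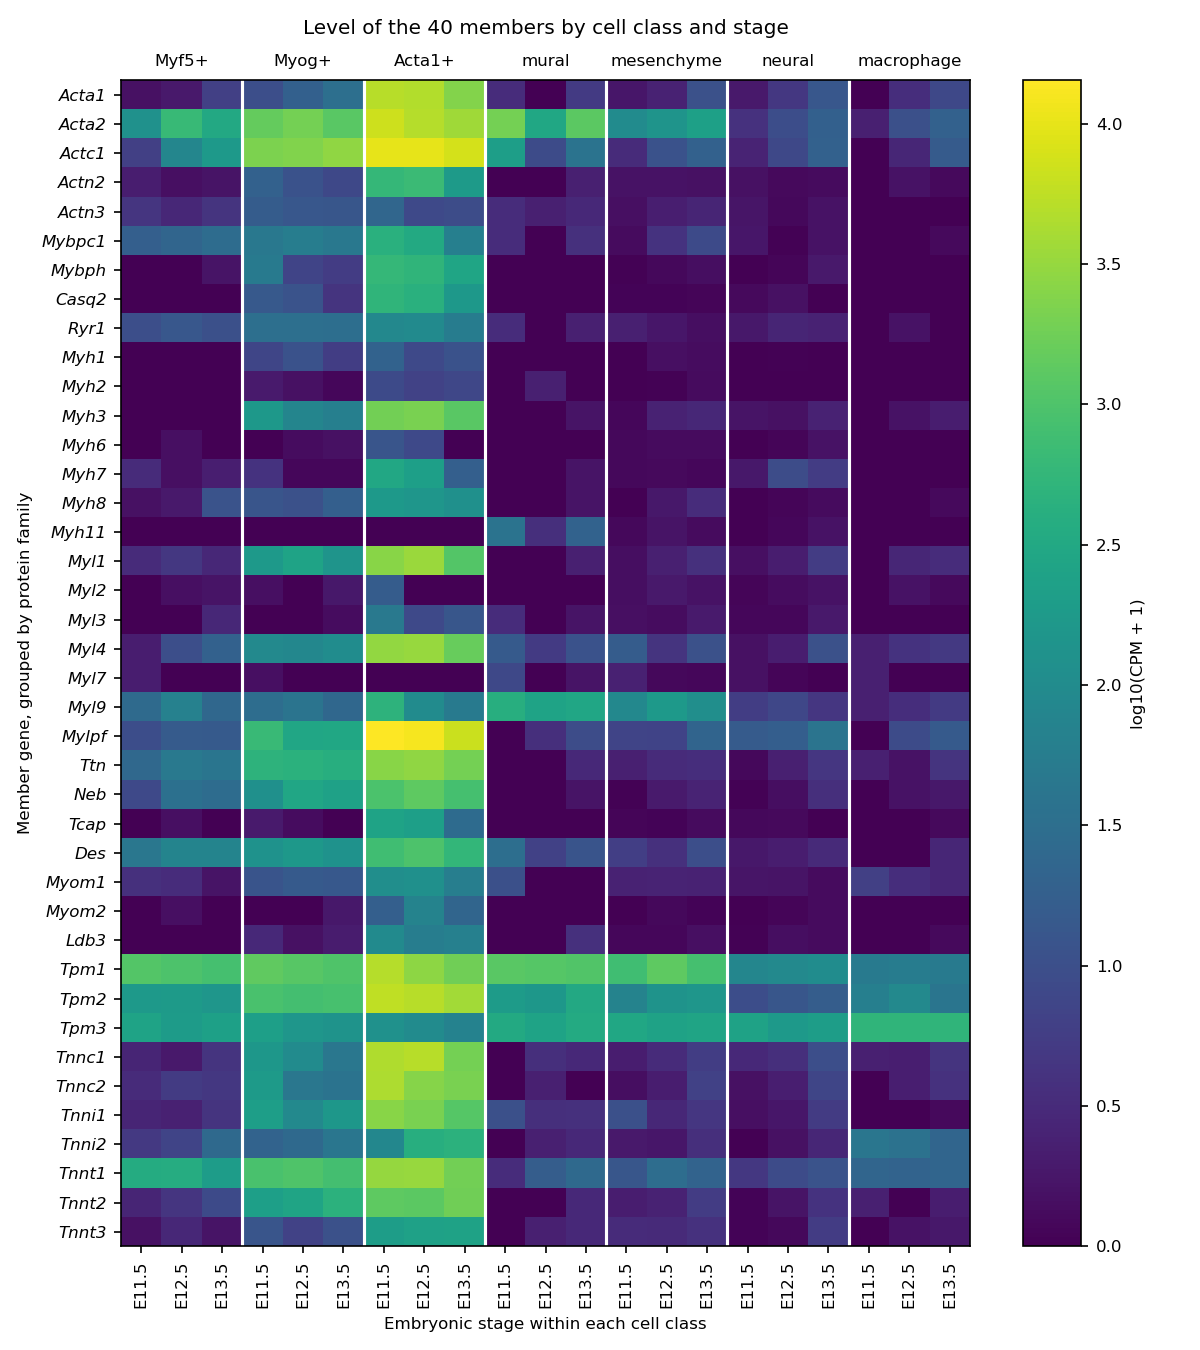
Level of each of the 40 members (rows, by family) in cell classes and stages (columns), coloured by log10(CPM + 1) of the summed UMIs. Most members are highest in Acta1-positive cells, Myh11 has 0 UMIs in all 3 muscle classes, and Tpm1 and Tpm3 have a level in every class.

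The first comparison, within each library, set Acta1-positive against Myf5-positive cells and asked which members differ between sarcomeric cells and progenitors. A member was compared where both classes held at least 10 UMIs together, and was counted as higher or lower at a ratio of at least 2. At E11.5, 33 of 34 members were higher, against 13.9% of all genes compared, and 0 lower, against 26.1%. At E12.5, 30 of 32 were higher, against 1261 of 10104 genes (about 12%), and 0 lower, against 29.6%. At E13.5, 33 of 34 were higher, against 11.1%, and 1 lower, against 27.5%. The median log2 ratio of the members was 7.06, 7.10 and 4.99, and that of all genes -0.28, -0.39 and -0.39. Acta1 set the class, so its own ratio is a description. It is nevertheless included in these counts, as a higher member at each stage, and in the medians.

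Tpm3, a tropomyosin of slow muscle and of many other cells, was the exception. It measured 254, 193 and 228 CPM in Myf5-positive cells and 127, 100 and 67.2 CPM in Acta1-positive cells, and the difference passed 2-fold at E13.5 (log2 -1.76, -2.27 to -1.29). Myl9, a regulatory light chain of smooth and non-muscle myosin, stayed within 2-fold at E12.5. Members with too few UMIs were Myh2, Myh6, Myh11, Myl2 and Myl7 at each stage, Myh1 at the last 2 stages, Myom2 at E11.5, and Actn3 and Myl3 at E12.5. Myh11, the smooth muscle heavy chain, and Myl7, the atrial light chain, had 0 UMIs in Acta1-positive cells, which allows up to 5.70, 5.56 and 5.04 CPM.

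Myog-positive cells already differed from Myf5-positive ones. At E11.5, 27 of 31 members were at least 2-fold higher (6.77% of all genes) and 0 lower (8.05%). At E12.5 the counts were 27 of 30 (7.33%) and 0 (8.15%), and at E13.5 22 of 30 (8.5%) and 0 (9.88%). Tpm1, Tpm3 and Myl9 stayed within 2-fold at all stages. The higher members include Acta1, which helps define the classes.

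Among the actins, Actc1, the cardiac alpha-actin that embryonic skeletal muscle also makes, was the highest in sarcomeric cells. It measured 5.07, 78.8 and 172 CPM in Myf5-positive cells, 2128, 2368 and 2934 CPM in Myog-positive cells and 10110, 9886 and 7826 CPM in Acta1-positive cells. The classes were in this order at each stage, and every Acta1-positive cell held Actc1. Acta2, the smooth muscle alpha-actin, measured 125, 636 and 321 CPM, then 1507, 1965 and 1230 CPM, then 6875, 4951 and 3662 CPM in the same classes. It was in 26 of 27, 23 of 23 and 34 of 34 Acta1-positive cells. Acta1, the adult skeletal alpha-actin, measured 0.564, 0.943 and 5.02 CPM, then 8.95, 18.0 and 31.5 CPM, then 5056, 4725 and 2415 CPM.

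Shares of a family's UMIs are also given. Whether its genes yield equal UMIs for equal amounts of RNA was not tested, so a share compares counts only. Actc1 made up 45.9, 50.5 and 56.3% of the UMIs of these 3 actins in Acta1-positive cells, Acta2 31.2, 25.3 and 26.3% and Acta1 22.9, 24.2 and 17.4%. In Myf5-positive cells Acta2 made up 95.7, 88.9 and 64.5%. These actins are close copies in their coding sequence, and so are the sarcomeric heavy chains. How reads matching several of them were counted is not stated here, so their split is uncertain.

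Actn2, the alpha-actinin of the Z-disc, measured 1.13, 0.472 and 0.627 CPM in Myf5-positive cells, 18.4, 10.0 and 6.90 CPM in Myog-positive cells and 574, 684 and 185 CPM in Acta1-positive cells. Actn3, the alpha-actinin of adult fast fibres, stayed low in all of them, with 22.8, 7.41 and 8.40 CPM in Acta1-positive cells.

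Myh3, the embryonic heavy chain, led its family. It had 0 UMIs in Myf5-positive cells, 162, 76.8 and 60.8 CPM in Myog-positive cells and 1840, 2099 and 1242 CPM in Acta1-positive cells. With 3 UMIs as the floor of the Myf5-positive class, the Acta1-positive level was at least 660-fold higher at E13.5. Myh3 made up 78.1, 84.3 and 89.0% of the UMIs of 6 sarcomeric heavy chains in Acta1-positive cells. Myh8, the perinatal chain, measured 175, 154 and 119 CPM there. The adult fast chains Myh1 and Myh2 were low, with 19.0, 7.41 and 10.1 CPM and 7.60, 5.56 and 6.72 CPM. Myh6, the cardiac alpha chain, had 6, 4 and 0 UMIs.

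Myh7, the slow and cardiac beta chain, measured 304 (259 to 355), 217 (179 to 259.7) and 16.8 (8.06 to 30.9) CPM in Acta1-positive cells. It made up 12.9, 8.70 and 1.20% of the heavy chain UMIs. It was seen in 19 of 27, 14 of 23 and 8 of 34 cells, and 1 of these cells, at E12.5, had no Myh3 UMI. At E12.5, 1 cell held 67 of the 117 Myh7 UMIs of its class, and without it the level was 103 CPM.

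**Figure D2:**
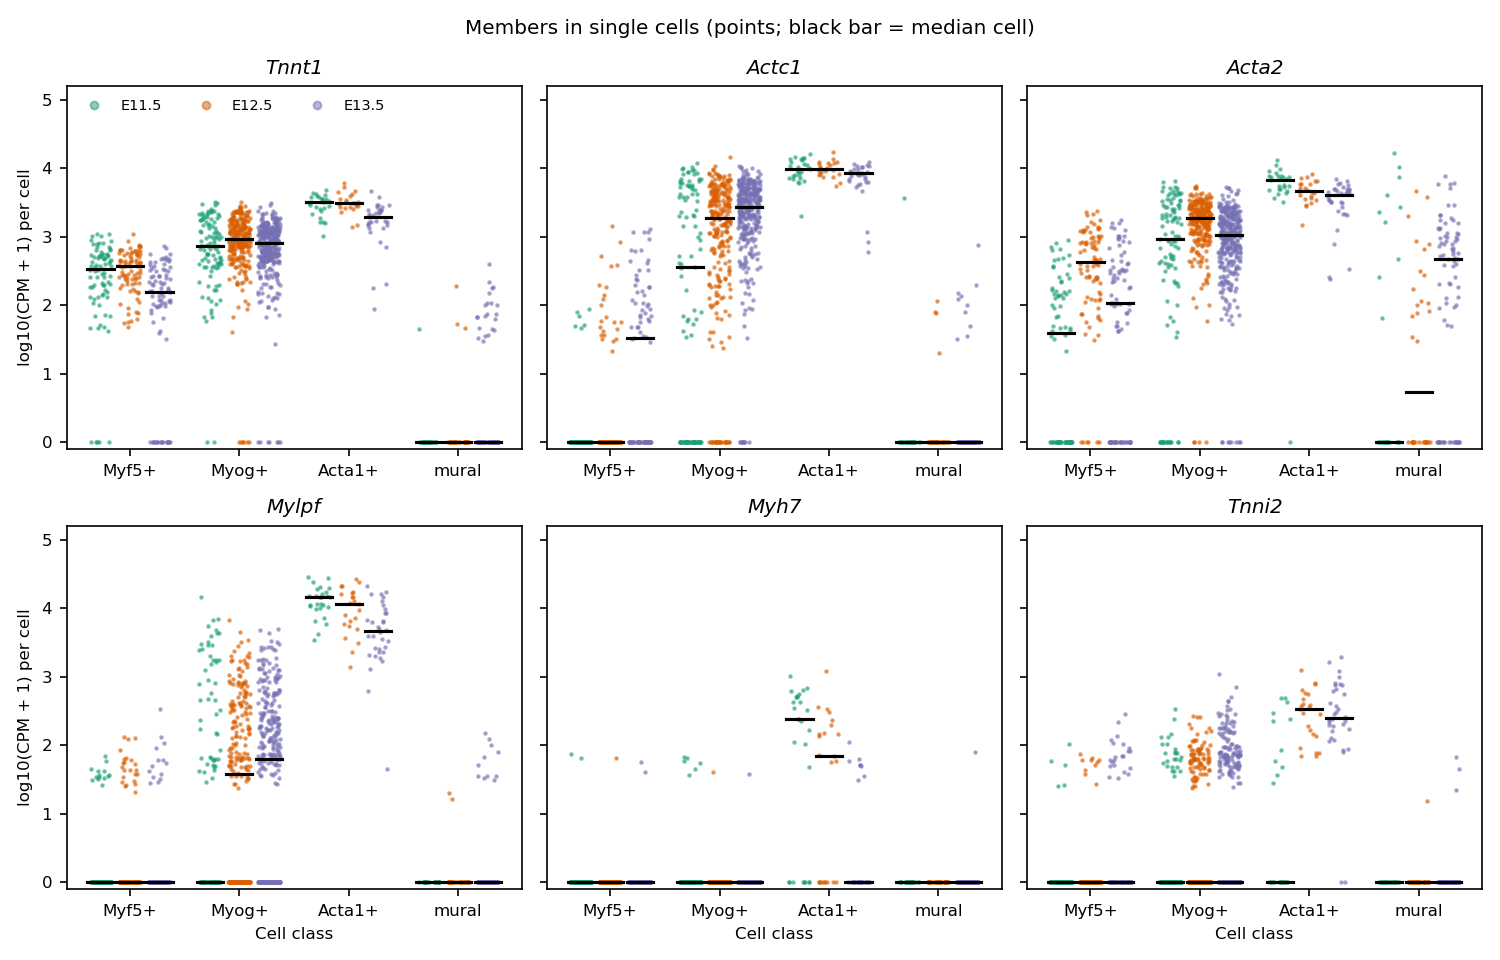
Each point is 1 cell. The vertical axis gives log10(CPM + 1) of the named gene in that cell, and cells are grouped by class (3 muscle classes and mural cells) and coloured by stage, with a black bar at the median. Actc1 and Tnnt1 are high in many Myog-positive cells, Mylpf spreads there from 0 to 14520 CPM, and Myh7 is at 0 in most cells.

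Light chains differed in how closely they kept to Acta1-positive cells. Mylpf measured 8.46, 14.6 and 13.8 CPM in Myf5-positive cells, 642, 284 and 301 CPM in Myog-positive cells and 14260, 12710 and 6622 CPM in Acta1-positive cells, where only Actc1 was higher and only at E13.5. Among Acta1-positive cells its lowest value was 3369, 1367 and 43.4 CPM, its median 14420, 11580 and 4623 and its highest 28210, 26250 and 20860. In Myog-positive cells 53, 122 and 137 cells had no Mylpf UMI, and the highest cell had 14520, 6799 and 4996 CPM. The Myog-positive mean thus rests on part of its cells. In neural cells, which should lack it, Mylpf measured 14.8, 16.7 and 38.7 CPM, above its level in Myf5-positive cells at each stage. The part of free RNA in both levels was not tested.

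The essential light chains Myl4, of atrium and embryonic muscle, and Myl1, of fast muscle, were both high. Myl4 measured 89.0, 83.6 and 103 CPM in Myog-positive and 2984, 3316 and 1572 CPM in Acta1-positive cells. Myl1 measured 177, 253 and 140 CPM and 2602, 3338 and 1093 CPM. Myl3, the essential chain of slow muscle and ventricle, measured 47.5, 7.41 and 11.8 CPM in Acta1-positive cells, and 16.4 CPM at E11.5 without the cell that held 17 of its 25 UMIs. Myl2, their regulatory chain, had 8, 0 and 0 UMIs. Myl9 measured 26.5, 66.0 and 23.2 CPM in Myf5-positive cells, 29.8, 38.1 and 23.7 CPM in Myog-positive cells and 475, 98.2 and 50.4 CPM in Acta1-positive cells.

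Of the myosin binding proteins, Mybpc1, the slow form of myosin-binding protein C, was present before Myog. It measured 16.9, 21.2 and 28.9 CPM in Myf5-positive cells, 45.8, 56.1 and 45.4 CPM in Myog-positive cells and 429.6, 332 and 60.5 CPM in Acta1-positive cells. Mybph, myosin-binding protein H, had 0, 0 and 1 UMIs in Myf5-positive cells, 49.7, 6.08 and 4.42 CPM in Myog-positive cells and 591, 524 and 279 CPM in Acta1-positive cells.

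Troponins held members at both ends of the order. Tnnt1, the slow skeletal troponin T, measured 360.2 (333 to 389), 372 (347 to 399) and 199.5 (178 to 223) CPM in Myf5-positive cells. Thinned to 4000 UMIs per cell, 62.5, 72.9 and 47.1% of these cells had a Tnnt1 UMI (93.8, 100 and 80% unthinned), and 1.15, 2.42 and 4.05% of neural cells. The level was 926, 1026 and 824 CPM in Myog-positive cells and 3092, 3271 and 1894 CPM in Acta1-positive cells. In Myf5-positive cells no other troponin passed 25.7 CPM, the level of Tnni2 at E13.5.

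Tnnt2, the cardiac troponin T, measured 1.69, 3.30 and 7.53 CPM, then 218, 268 and 474 CPM, then 1321, 1278 and 1800 CPM in the 3 classes. Its share of troponin T UMIs in Acta1-positive cells was 28.6, 26.7 and 45.6%. Tnnt3, the fast form, measured 11.4, 5.54 and 9.72 CPM in Myog-positive and 207, 237 and 249 CPM in Acta1-positive cells. The fast form was the least counted troponin T at each stage.

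Tnnc1, the troponin C of slow muscle and heart, measured 155, 99.5 and 44.0 CPM in Myog-positive and 4617, 5146 and 1950 CPM in Acta1-positive cells. Tnnc2, the fast form, measured 182, 44.1 and 36.6 CPM and 4400, 2538 and 2089 CPM. Both forms were found together in 27 of 27, 23 of 23 and 31 of 34 Acta1-positive cells.

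Tnni1, the slow troponin I, measured 208, 87.9 and 158 CPM in Myog-positive and 2638, 2049 and 1156 CPM in Acta1-positive cells. Tnni2, the fast form, measured 81.7 (59.2 to 110.1), 404 (352 to 461) and 459 (406 to 517) CPM in Acta1-positive cells, and its share of troponin I UMIs was 3.00, 16.5 and 28.4%. It was in 11 of 27, 23 of 23 and 32 of 34 cells, or 22.2, 69.6 and 70.6% at the fixed depth, while Tnni1 was in every Acta1-positive cell.

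**Figure D3:**
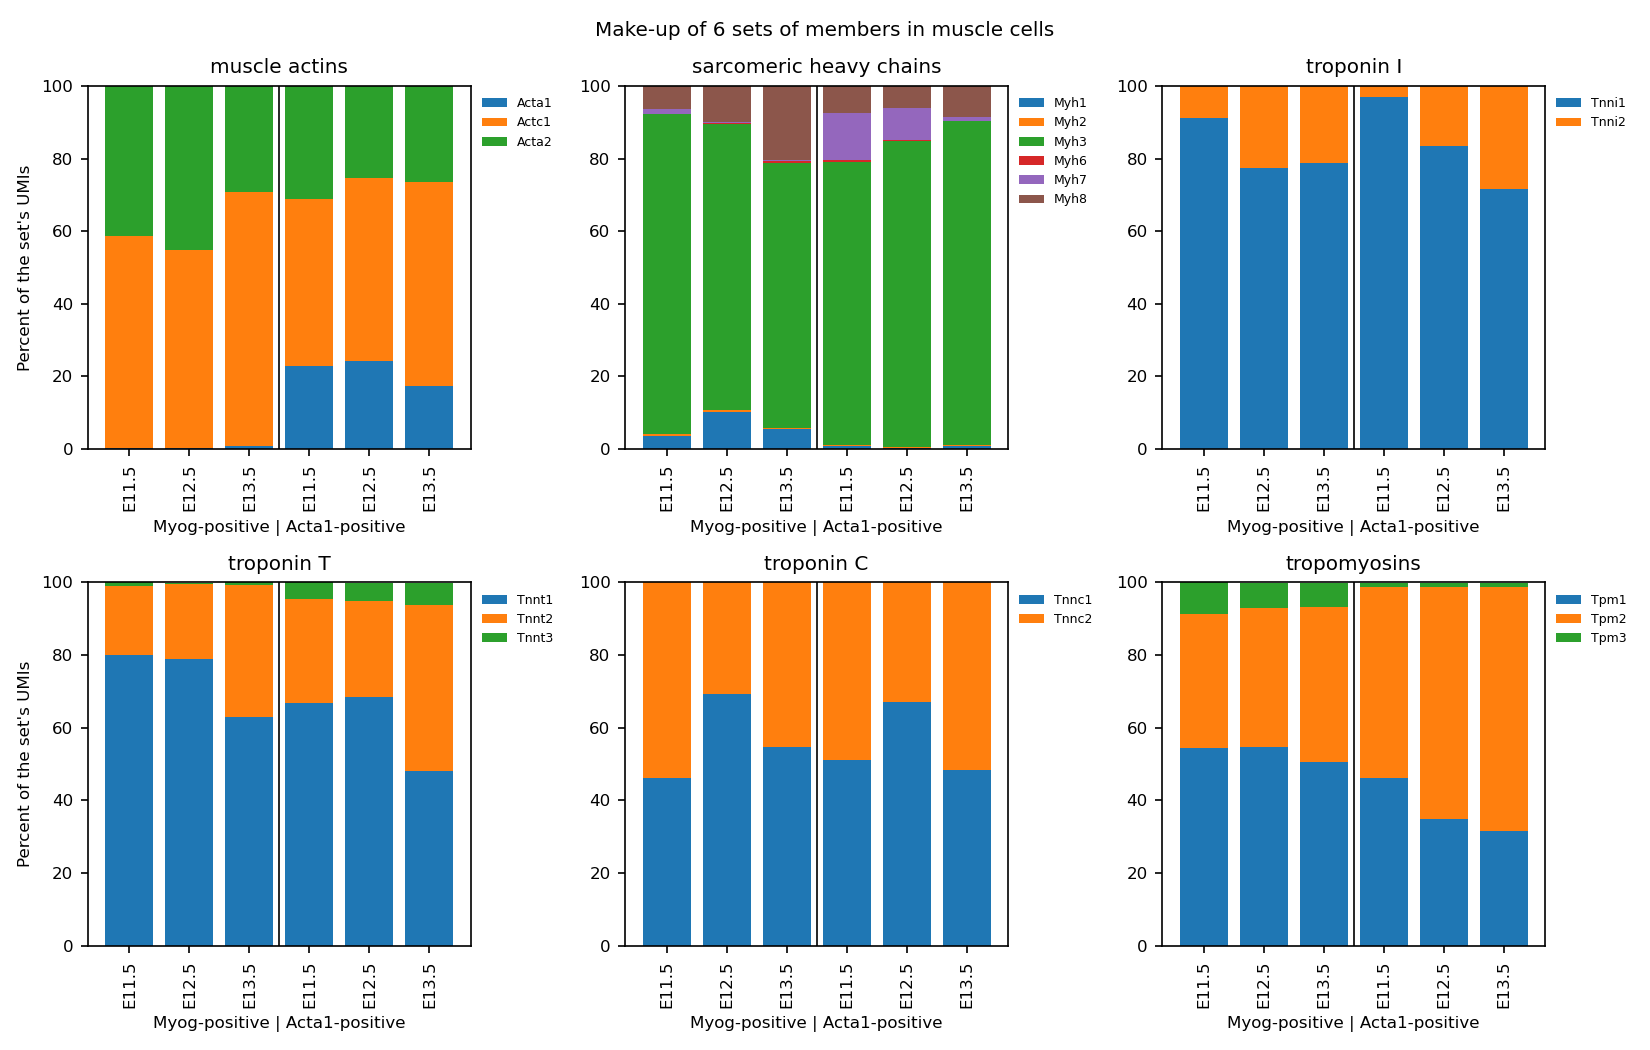
Stacked bars give the percent of a set's UMIs taken by each gene, for 6 sets, at the 3 stages in Myog-positive cells (left of the line) and Acta1-positive cells (right). In Acta1-positive cells Tnni2 goes from 3.00 to 28.4% of its set and Myh7 from 12.9 to 1.20%.

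Tropomyosins were present in all classes. Tpm1, the alpha form, measured 1111, 989 and 839 CPM in Myf5-positive cells, 1363, 1169 and 1033 CPM in Myog-positive cells and 4987, 2771 and 1765 CPM in Acta1-positive cells. Tpm2, the beta form, measured 177, 181 and 151 CPM, then 929, 814 and 870 CPM, then 5668, 5105 and 3787 CPM. Tpm2 made up 52.6, 64 and 67.4% of tropomyosin UMIs in Acta1-positive cells and 37.0, 38.1 and 42.7% in Myog-positive cells.

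Titin and nebulin were already counted in progenitors. Ttn measured 24.2, 47.2 and 40.8 CPM in Myf5-positive cells, 491, 444 and 396 CPM in Myog-positive cells and 2646, 2867 and 1951 CPM in Acta1-positive cells. Neb measured 7.33, 32.6 and 28.2 CPM, then 119, 284 and 239 CPM, then 966, 1311 and 835 CPM. In neural cells Ttn measured 0.212, 1.31 and 3.60 CPM and Neb 0.0707, 0.418 and 2.70 CPM, below every muscle class. Des, the intermediate filament desmin, measured 43.4, 72.6 and 72.8 CPM, then 129, 162 and 129.9 CPM, then 753, 984 and 565 CPM.

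Anchoring proteins were highest in Acta1-positive cells. Tcap, the titin cap of the Z-disc, had 2, 2 and 0 UMIs in Myog-positive cells and 258, 220.4 and 26.9 CPM in Acta1-positive cells. Ldb3, a Z-disc protein, had 0 UMIs in Myf5-positive cells and 95.03, 57.4 and 63.9 CPM in Acta1-positive cells. The M-band genes Myom1 and Myom2 measured 114, 120.4 and 58.8 CPM and 17.1, 70.4 and 21.8 CPM there.

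Of the calcium handling genes, Ryr1, the calcium release channel, measured 9.02, 12.3 and 9.41 CPM in Myf5-positive cells, 32.3, 31.4 and 30.4 CPM in Myog-positive cells and 85.5, 94.5 and 55.5 CPM in Acta1-positive cells. Casq2, the calsequestrin of heart and slow muscle, had 0 UMIs in Myf5-positive cells, 13.4, 10.7 and 3.18 CPM in Myog-positive cells and 525, 428 and 161 CPM in Acta1-positive cells.

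The level in Myog-positive cells as a percent of that in Acta1-positive cells orders the members along the classes. It was taken for the 21 members with at least 50 UMIs in Acta1-positive cells at each stage, with Acta1 left out. By the median of the 3 stages, the highest were Tpm1 at 27.3, 42.2 and 58.5%, Acta2 at 21.9, 39.7 and 33.6%, Tnnt1 at 29.9, 31.4 and 43.5% and Actc1 at 21.0, 24.0 and 37.5%. Neb held 12.4, 21.6 and 28.6%, Tnnt2 16.5, 20.9 and 26.4% and Ttn 18.6, 15.5 and 20.3%. By the same median, the lowest were Mybph at 8.42, 1.16 and 1.58%, Tnnc2 at 4.13, 1.74 and 1.75%, Tnnc1 at 3.36, 1.93 and 2.26% and Casq2 at 2.56, 2.51 and 1.97%. Myh3 held 8.81, 3.66 and 4.90% and Mylpf 4.50, 2.24 and 4.55%. Actc1, Acta2, Tnnt1, Neb and Ttn thus had a larger part of that level in Myog-positive cells than the troponin C genes, Myh3 and Mylpf. This does not hold for all actins, since Acta1, which sets the class, was at 0.177, 0.382 and 1.30%. Spearman's rho between the orders of 2 stages was 0.84 for the first and second, 0.971 for the second and last, and 0.844 for the first and last, over 21 genes that share libraries and cells. Acta1-positive cells were left out of the Myog-positive class by its definition, so the percentages describe these classes only.

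**Figure D4:**
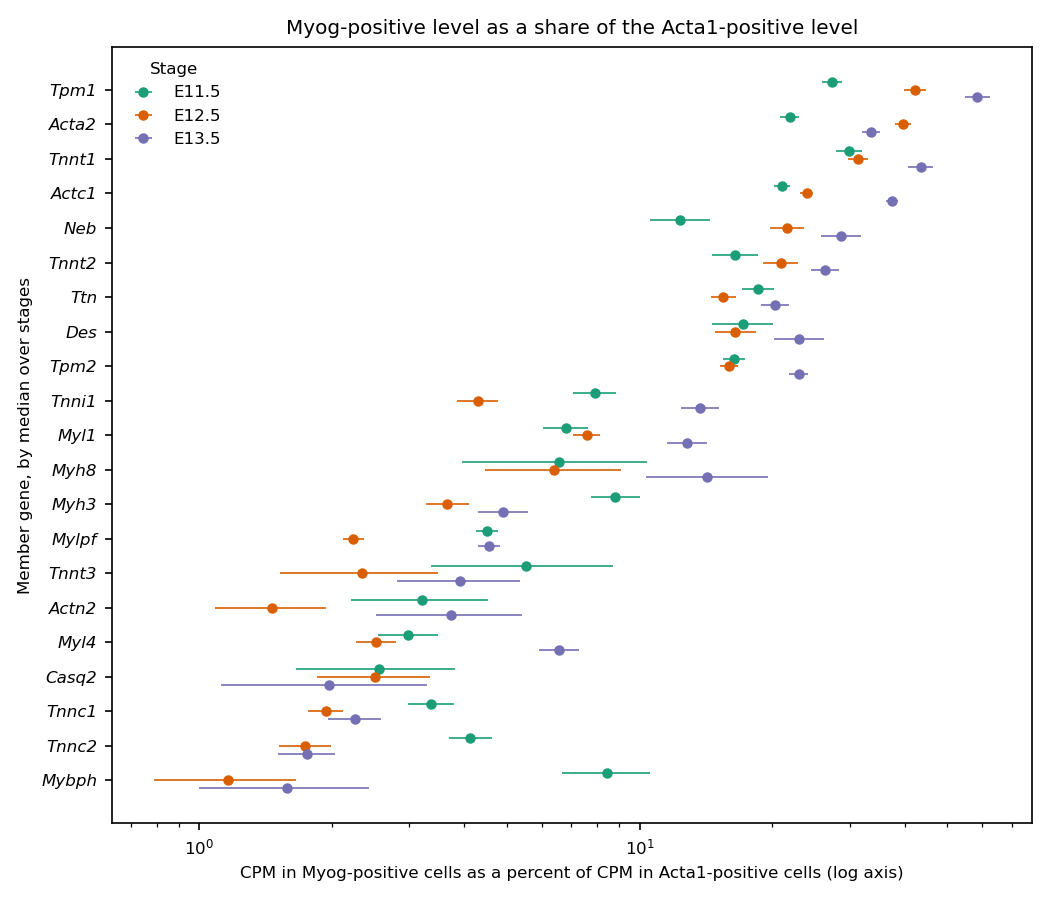
For 21 members (rows), the Myog-positive level as a percent of the Acta1-positive level, with 95% counting intervals and a colour per stage. Tpm1, Acta2, Tnnt1 and Actc1 lie above 20% at each stage, and Casq2, Actn2 and Tnnc1 below 4%.

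Other muscle genes were taken from lists drawn up beside the members. Some of them also define the classes, so that their direction is set by the choice of cells, and counts are given with and without them. Of all genes compared, 13.9%, about 12% and 11.1% were at least 2-fold higher in Acta1-positive than Myf5-positive cells, and 26.1%, 29.6% and 27.5% lower. Of 34 further sarcomere, Z-disc and M-band genes, 24 of 24, 22 of 24 and 18 of 20 compared were higher and 0 lower (23 of 23, 21 of 23 and 17 of 19 without Klhl41), with a median log2 ratio of 5.50, 5.22 and 5.07. At E13.5 Lmod3, which nucleates actin filaments, measured 313 CPM against 0.627, and Unc45b, a myosin chaperone, 161 against 0.627. Smpx measured 227 and Klhl41, a gene of the class definition, 271 CPM.

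Of 25 genes of excitation-contraction coupling and the neuromuscular junction, 20 of 20, 21 of 22 and 21 of 22 were higher and 0 lower, or 15 of 15, 15 of 16 and 15 of 16 without the 6 that define the classes. Atp2a1, the calcium pump of fast muscle, measured 173 CPM against 0.627 at E13.5, and its inhibitor Sln 555 against 2.51. Chrng, the fetal acetylcholine receptor subunit, and Stac3 helped define the classes and measured 95.8 and 165 CPM. Of 17 energy metabolism genes 12 of 15, 10 of 14 and 10 of 14 were higher and 0 lower, or 11 of 14, 9 of 13 and 9 of 13 without Ckm. Cox6a2, the muscle subunit of cytochrome oxidase, measured 281 CPM, Pgam2 365, Eno3 287 and Fabp3 136.

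Of the regulator and fusion genes, 8, 7 and 7 were higher and 8, 8 and 7 lower of 18, 17 and 17 compared, and 8 of the list define the classes. Without these, 3, 3 and 3 were higher and 5, 5 and 4 lower of 10, 10 and 10. Mef2c, a myogenic transcription factor, measured 978 CPM against 13.8 at E13.5. Myog, Mymk and Mymx, at 3377, 407 and 1069 CPM, were part of the class definitions. Of the smooth muscle list, 6, 5 and 2 were higher and 1, 2 and 2 lower of 8, 7 and 7 compared. At E13.5 Smtn was higher (log2 4.30), Tpm4 (-1.73) and Cald1 (-1.39) were lower, and Myl6 (0.80) was within 2-fold.

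Acta1-positive cells were next compared between neighbouring stages, with a minimum of 20 cells set after the data were seen, since no library held 50. From E11.5 to E12.5, 2 of 36 members were at least 2-fold higher, against 6.35% of all genes, and 4 lower, against 12.8%. These counts are no more than the background share gives, and the median member ratio was -0.16, beside -0.12 for all genes. Tnni2 was higher (log2 2.30, 1.83 to 2.81), and so was Myom2 (2.04, 0.97 to 3.28), which had 33.0 CPM at E12.5 without its highest cell. Myl9 was lower (-2.28, -2.73 to -1.84). Myl3 (-2.68), Actn3 (-1.62, -3.71 to 0.10) and Myh1 (-1.36, -3.49 to 0.43) were lower on few UMIs, and the last 2 intervals include 0. Without its highest cell Actn3 had 13.8 CPM at E11.5.

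From E12.5 to E13.5, 0 of 34 members were higher, against 8.22% of all genes, and 10 lower, against 9.38%. The median member ratio was -0.78, beside -0.02 for all genes. The lower members were Myh7 (-3.69, -4.79 to -2.76), Tcap (-3.04, -3.89 to -2.28), Mybpc1 (-2.45), Actn2 (-1.89), Myom2 (-1.69), Myl1 (-1.61), Casq2 (-1.41), Tnnc1 (-1.40), Myl4 (-1.08) and Myom1 (-1.03). Acta1, which sets the class, is among the members compared in both steps and was within 2-fold. Of the further sarcomere genes, 0 were higher and 11 lower of 26. Single cells weighed on some values. Without its highest cell Myh7 had 103 CPM at E12.5, Tcap 144 and Myom2 33.0, and Tcap had 17.6 CPM at E13.5.

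The stage comparison was repeated in late muscle cells defined without Acta1, a class of 52, 57 and 67 cells. They had at least 4 of 10 late markers and at least 3 of the 14 muscle markers. Ckm, Klhl41, Cacna1s and Chrng are in both lists. From E12.5 to E13.5 Myh7 was at -3.48, Tcap at -2.82 and Mybpc1 at -1.64, while Myl4 (-0.78) and Myom1 (-0.65) were within 2-fold. From E11.5 to E12.5 Tnni2 was at 1.51 and Myl9 at -2.19, and Myh1 changed direction (0.57). Among the 14, 9 and 31 cells carrying Xist but lacking Y-linked UMIs, under the minimum of 20 cells at the first 2 stages, Myh7 was at -1.22 in the first step and -2.43 in the second, and Tnni2 at 1.78 and 0.72.

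Other values moved with stage in the same cells. The median Acta1 level was lowest at E13.5, as given above. Doubling the Acta1 limit left 23 of the 34 cells at E13.5, against 22 of 27 at E11.5 and 19 of 23 at E12.5. The 11 mesenchymal markers summed to 217, 129.7 and 1383 CPM in Acta1-positive cells, with 2, 4 and 0 of them at 0, and to 324, 496 and 1165 CPM in Myog-positive cells. The median mitochondrial share of Acta1-positive cells was 3.97, 3.97 and 5.06% and their median depth 20750, 20581 and 16323 UMIs, and a mitochondrial limit of 5% left 20, 19 and 16 of them. Outside cells, in barcodes of 50 to 500 UMIs, each member counted as lower from E12.5 to E13.5 had a higher level at E13.5. So had every other member except Myh1, Myh6, Myl7, Myl9, Tpm1, Tpm3 and Ryr1. The same share over all genes was not computed. Myh7 measured 4.96 (3.56 to 6.73) and 7.39 (6.12 to 8.85) CPM in these barcodes, and Tcap 3.63 (2.45 to 5.18) and 4.82 (3.805 to 6.03). Tnnc1 measured 60.5 and 114 CPM, and Myl4 50.6 and 131. Among the lower members, the intervals of both stages overlapped for Myh7, Tcap, Mybpc1, Myom2, Casq2 and Myom1. The part of these values in the stage differences was not tested.

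In Myog-positive cells, 2 of 30 members were at least 2-fold higher from E11.5 to E12.5 (5.41% of all genes) and 6 lower (4.89%). Neb was higher (log2 1.25), as was Acta1 (1.01), which helps define the classes. Mybph (-3.03), Tnnc2 (-2.04), Tnni1 (-1.24), Mylpf (-1.18), Myh3 (-1.08) and Tnnt3 (-1.05) were lower. From E12.5 to E13.5, 0 were higher (3.73%) and 3 lower (5.58%), namely Casq2 (-1.75), Tnnc1 (-1.18) and Myh1 (-1.12).

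In Myf5-positive cells, 5 of 20 members were higher from E11.5 to E12.5 (5.45% of all genes) and 0 lower (5.48%). They were Actc1 (3.96), Myl4 (2.99), Acta2 (2.34), Neb (2.15) and Myl9 (1.32). From E12.5 to E13.5, 6 were higher (3.57%) and 2 lower (6.48%). Myh8 (3.50), Acta1 (2.41), Tnni2 (2.07), Tnnt2 (1.19), Actc1 (1.13) and Myl4 (1.07) were higher, and Myl9 (-1.51) and Myl1 (-1.004) were lower. Several rest on few UMIs. Myh8 had 2 and 17 in this step, Acta1 2 and 8, Tnnt2 7 and 12, Myl4 19 and 30 and Myl1 8 and 3. At E11.5 Actc1 had 9 and Myl4 2. In neural cells, over the same stages, Actc1 measured 1.56, 7.10 and 18.3 CPM and Acta1 0.919, 3.64 and 12.3 CPM. The part of free RNA in these small levels was not tested.

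Smooth muscle members were examined in mural cells, defined by at least 5 of 12 markers such as Rgs5, which numbered 24, 34 and 79. At E13.5, the only stage with at least 50 of them, 6 of 31 members were at least 2-fold higher than in other non-muscle cells (6.6% of all genes) and 10 lower (12.6%). Acta2 measured 1270 (1213 to 1329) CPM against 178 (log2 2.83) and was found in 60 of 79 cells. Myl9 (1.70) measured 284 CPM and Tpm2 (1.42) 321 CPM. Myh11 (6.26) had 29 UMIs in 7 cells, 19 of them in 1 cell, without which it measured 6.91 CPM. Ldb3 (2.76) and Actn2 (1.14) rest on 4 and 2 UMIs. The lower members were striated ones at low levels, such as Mylpf at 8.10 against 21.3 CPM. Of 27, 41 and 50 cells with at least 4 of 8 smooth muscle markers, 2, 1 and 2 were mural and 11, 6 and 2 muscle cells. At E13.5 mural cells held 7.49% of Acta2 and 5.95% of Myl9 UMIs, and mesenchyme 45.0% and 78.8%. The mural values thus describe cells chosen by mural markers, and not all smooth muscle.

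The earlier mural cells were too few to count members. Acta2 measured 1934 CPM at E11.5 and 294 CPM at E12.5, and 1022 and 232 CPM without the highest cell. At E11.5, all 90 Actc1 UMIs of the class were in 1 cell, and 15 of its 16 Myh11 UMIs were in 1 cell. Acta2 was higher in Acta1-positive than in mural cells at each stage. Tagln, a smooth muscle gene outside the 40, measured 1074, 328 and 192 CPM in Acta1-positive and 1553, 312 and 857 CPM in mural cells. The 12 mural markers summed to 53.2, 24.1 and 72.3 CPM in Acta1-positive cells, where Rgs5 was at 0, and to 1454, 1732 and 1597 CPM in mural cells.

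Heart cells use several members too. Of 11 cardiac markers, 8, 8 and 9 were at 0 in Acta1-positive cells, among them Nppa, Nppb, Tbx20, Mybpc3, Hcn4 and Pln at each stage. Their summed level, 1099, 1473 and 556 CPM, was nearly all Sln, which skeletal muscle also makes. Myl7 had 578, 15 and 37 UMIs over all cells. At E11.5, 270 of these were in 29 of 59 cells with mesothelial markers, at 203 CPM, and 181 of the 578 were in 1 cell.

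Some members had a level in cells that are neither muscle nor mural. Tnni2 measured 41.3 (28.3 to 58.3), 35.7 (27.1 to 46.2) and 21.7 (17.1 to 27.3) CPM in macrophages, in 21 of 35, 38 of 81 and 57 of 264 cells. In neural cells it measured 0, 0.537 and 1.80 CPM. Tpm3 measured 529, 518 and 522 CPM in macrophages. Myh7 measured 0.884, 8.18 and 4.50 CPM in neural cells and had 0 UMIs in macrophages. Myl9 measured 96.6, 185 and 222 CPM in Schwann and crest cells.

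RNA outside cells was read from barcodes of 50 to 500 UMIs and compared with all cells of the library. At E11.5, 1 of 37 members was at least 2-fold higher in these barcodes (1.78% of all genes) and 7 lower (29.5%). At E12.5, 5 of 39 were higher (1.9%) and 4 lower (29.5%). At E13.5, 20 of 40 were higher (2.89%) and 2 lower (36.8%). The median log2 ratio of members was -0.56, -0.01 and 1.02, beside -0.52, -0.52 and -0.72 for all genes.

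Members differed within the E13.5 library. Acta1 measured 247 CPM in these barcodes and 27.4 CPM in cells (log2 3.17), and Mylpf 513 and 86.1 CPM (2.57). Myh7 (3.70) and Tcap (3.46) had the highest ratios. Actc1 (0.00), Tnnt1 (0.28) and Ttn (-0.13), which have much of their level in Myog-positive cells, were near even on this scale, above the median of all genes, and Neb was lower (-1.25).

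**Figure D5:**
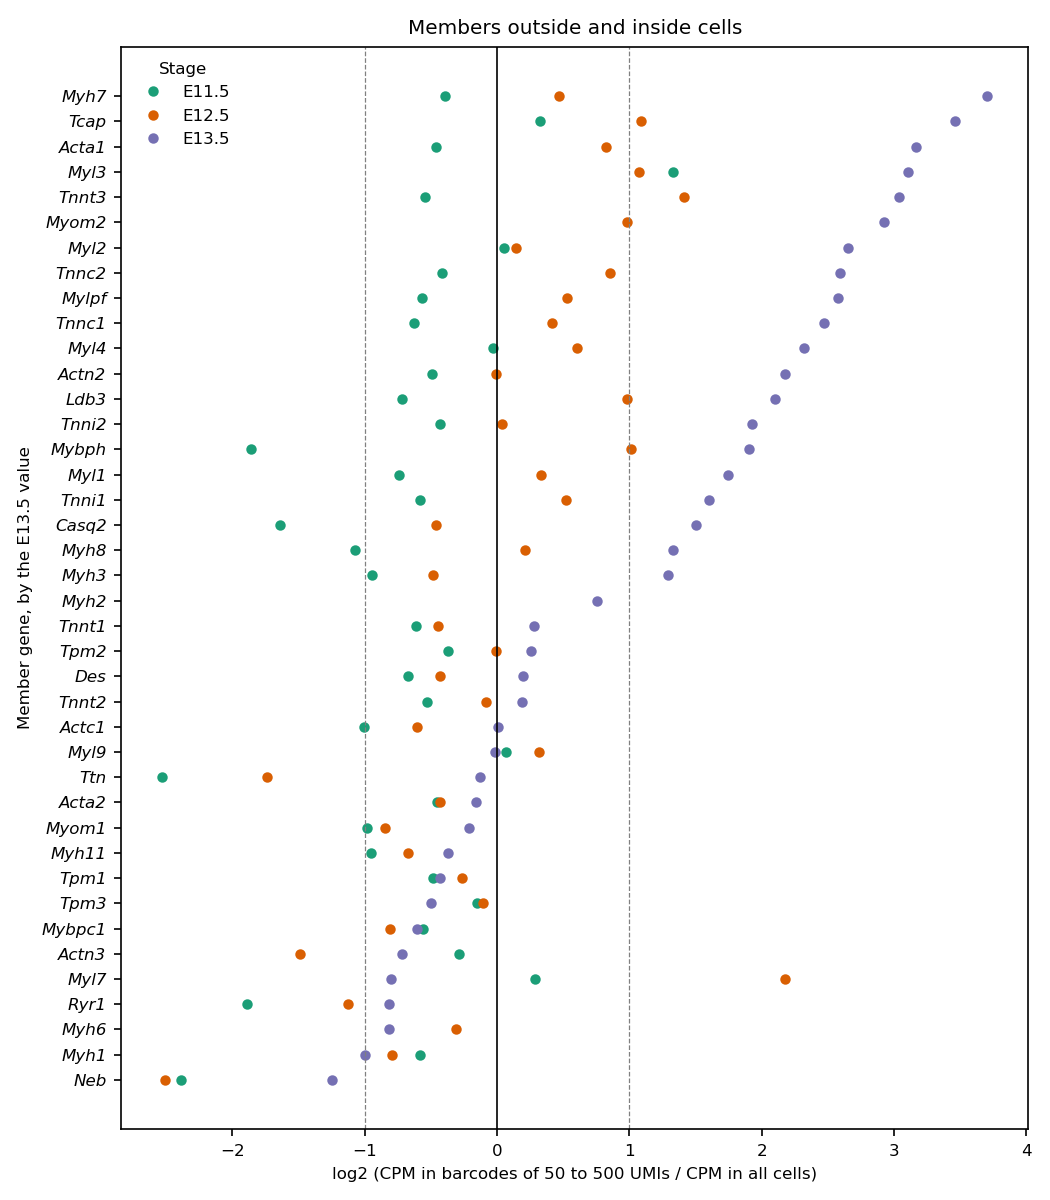
For each member (rows), the log2 ratio of its CPM in barcodes of 50 to 500 UMIs to its CPM in all cells, with a colour per stage. At E13.5, 20 of 40 members are at least 2-fold higher in these barcodes, led by Myh7 and Tcap, and 1 of 37 is at E11.5.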

How the data were processed

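The files hold UMI counts per gene and barcode, deposited as unfiltered 10x matrices, 1 per library, with no normalization; per the submitters' processing notes the counts came from Cell Ranger 8.0.1 on genome build GRCm39, while the sources used here do not give the annotation release. The 40 members and all gene lists were chosen with earlier results of these data known.

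Cells had at least 4000 UMIs and 500 genes, with no more than 10% of UMIs from mitochondrial genes. Classes were set by counting markers, with limits chosen after seeing the data: Acta1-positive (500 CPM, 3 UMIs and 3 of 14 markers), Myog-positive (2 Myog UMIs and 2 markers) and Myf5-positive (2 Myf5 UMIs, no Myog UMI and 2 of 10 progenitor markers). Other classes needed 4 to 6 markers, and erythroid cells 20% haemoglobin UMIs. Some overlaps of gates were settled by rank. Muscle gates overrode mesenchyme and mural, and mural, mesothelium and Schwann gates overrode mesenchyme. Mesothelium overrode epidermis, and Schwann overrode neural. Cells still meeting 2 gates were left out. Doublets of muscle with mesenchyme or mural cells were not removed by this step. Scrublet called 182, 121 and 167 cells, which an alternative removes. Shares of cells were also computed after thinning to 4000 UMIs.

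UMIs were summed per class and stage and given as CPM with exact Poisson intervals. Shares have Clopper-Pearson intervals, and log2 ratios exact conditional binomial ones. A side with 0 UMIs was set to 3 UMIs, which gives a bound. With 1 library per stage no test was possible; members and all genes with at least 10 UMIs over both classes were counted past 2-fold. A minimum of 50 cells had been set for stage comparisons, no library reached it for Acta1-positive cells, and 20 was used instead. The barcode comparison was also added after seeing the data. Members described in full have the highest level of their family or a 2-fold difference between stages; of other lists up to 4 genes are named, those with the largest ratio at E13.5 and at least 50 UMIs.

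Alternatives changed the UMI minimum, the mitochondrial limit, free RNA, doublets, scaling, weighting of cells, sex, the UMI filter and the gates. For subtraction the share of free RNA in cells was taken as 15.3, 8.40 and 7.45%, the highest of 3 estimates. The E11.5 value came from the members Acta1 and Mylpf in neural cells and macrophages, so this alternative uses members' own values there. The E12.5 and E13.5 values came from collagen genes in the same cells. From haemoglobin alone the share was 1.89, 1.61 and 2.30%. On simulated counts for Acta1-positive against Myf5-positive cells (9974 genes at E11.5), 98.0% of changed and 8.34% of unchanged genes passed 2-fold, and 97.5% of intervals held the true value. These counts were drawn with counting error only, as the intervals assume, and without spread between cells or embryos. They check the calculation and do not show how well the intervals hold in the data. Python 3.11.15, numpy 2.4.6, scipy 1.17.1, pandas 2.3.3, scanpy 1.11.5 and matplotlib 3.10.9 were used.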

Additional observations from a re-analysis of the deposited data

Results flagged for a closer look

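For 3 members the ratio between barcodes of 50 to 500 UMIs and all cells was at least 2-fold higher in 1 library and at least 2-fold lower in another; smaller changes of direction are not listed. This difference between stages was not tested, since each stage is 1 library. Myh8, the perinatal heavy chain, had a log2 ratio of -1.073 at E11.5 and 1.327 at E13.5. Mybph, myosin-binding protein H, had -1.861 in the E11.5 library, 1.013 in that of E12.5 and 1.903 in that of E13.5. Casq2, the calsequestrin of heart and slow muscle, had -1.64 at E11.5 and 1.506 at E13.5.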

How the results depend on the processing

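Counts of members were computed under each alternative, and 113 of 124 stayed within 1.5 times the main count. Of 4732 values of single members, 4004 stayed inside the 95% interval of the main value and 727 moved outside it. Settings that change only the UMI filter leave each ratio as it was, so they could not change a direction. Of 1955 ratios past 2-fold, these settings included, 1954 kept their direction and 1899 stayed past 2-fold. The 1 that reversed was Myh1 in Acta1-positive cells from E11.5 to E12.5, at 0.572 in late muscle cells defined without Acta1, against -1.359. In barcodes of 50 to 500 UMIs at E12.5, 5 members were higher than in cells; there were 3 at a minimum of 8000 UMIs per cell, 9 with free RNA subtracted, 10 with scaling by the median ratio over genes, 15 with the mean of per-cell CPM and 3 with at least 50 UMIs. In mural cells at E13.5 the 6 higher members became 10 with free RNA subtracted and 3 with at least 50 UMIs. In Acta1-positive cells from E12.5 to E13.5, 0 higher members became 1 with the mean of per-cell CPM. From E11.5 to E12.5 the 2 higher members became 1 among cells with Xist but no Y-linked UMI and 1 with at least 50 UMIs, and the 4 lower members became 1 with at least 50 UMIs. Requiring at least 50 UMIs compares fewer genes; otherwise the cause was not tested. The stage comparison was not run with a mitochondrial limit of 5% or the Acta1 limit doubled, since classes then held under 20 cells. With scaling by the median ratio, the median of all genes in the barcode comparison moved from -0.52, -0.525 and -0.715 to -0.0485, -0.0609 and -0.0579 (log2). No paired analysis was possible because each stage is 1 library. Rare members such as Myh2, Myl2 and Myh6 are limited by depth.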
